A study of Mus musculus with 12 samples.

Results

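Adipocyte progenitors and other stromal cells are commonly recognised by a small set of cell surface proteins, and transcripts of 7 such genes were examined here: Pdgfra, Pdgfrb, Cd34, Ly6a, Dlk1, Thy1 and Eng. Every probe set annotated to exactly 1 of these symbols was taken, which gave 9 probe sets of 6 genes out of 22626 non-control probe sets on the array. Ly6a, the gene of the progenitor antigen Sca-1, was carried by no probe set of that symbol alone and was not analysed here. Of the 9 probe sets, 8 were among the 15838 whose mean passed an intensity filter of 100.9, and the other was a dim probe set of Eng. Probe sets of the same gene were kept apart because those of Pdgfra disagreed.

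The cells were mouse embryonic fibroblasts (MEFs) lacking their own PPARγ, the nuclear receptor required for fat cell formation, into which a PPARγ gene had been put back, and all 4 groups had been differentiated for 6 days. One group carried S273A PPARγ, in which a serine that the kinase Cdk5 phosphorylates is replaced by alanine, and received no ligand. The others carried wild-type PPARγ and received the full agonist rosiglitazone at 1 µM for 24 h, the PPARγ ligand MRL24 at 1 µM for 24 h, or no ligand (untreated wild-type). Each group had 3 arrays of total RNA. Separate cultures for the arrays of a group, or a vehicle for the untreated cells, are not mentioned in the labels, so the spread behind the p-values could be technical. As far as the labels say, each receptor form was present in 1 set of cells, so the receptor and the cell population cannot be told apart.

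Pdgfra and Pdgfrb encode the receptor tyrosine kinases for platelet-derived growth factors, which drive growth and migration of mesenchymal cells, and both mark adipose progenitors in mouse fat. Cd34 encodes a sialomucin of progenitor and endothelial surfaces, Thy1 a GPI-anchored glycoprotein of fibroblasts and mesenchymal stromal cells, and Eng (endoglin) a co-receptor for TGF-β and BMP ligands. Dlk1, also called Pref-1, is a transmembrane relative of the Notch ligands that restrains adipocyte differentiation and usually declines as fat cells form.

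On the 12 arrays the median intensity was 297 to 315 and the maximum 31882 to 33624. One array differed from the other 11: untreated wild-type replicate 2 had a score of -24.96 on the first principal component against -7.15 to 11.72, and a residual SD of 0.153 on the log2 scale against 0.096 to 0.128. Pparg read 1073 ± 162 in S273A, 834 ± 76.1 with rosiglitazone, 846 ± 20.7 with MRL24 and 904 ± 97.7 in untreated wild-type cells (mean ± SD, n = 3 each), and no difference from untreated wild-type passed the test (limma adjusted p = 0.17, 0.537 and 0.619). Where its probes lie relative to the knockout was not analysed here. The label of adipocytes was borne out in part: the fatty acid carrier Fabp4 read 9509 ± 782 in untreated wild-type cells, while adiponectin (Adipoq) was below the filter and the fibroblast collagen Col1a2 read 12878 ± 1193.

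The sequence upstream of the annotated start was examined for 4 of the 7 genes (Pdgfra, Cd34, Dlk1 and Eng, from RefSeq GRCm38.p6), and Pdgfrb was left out of the search. The 250 bases before the start are shown for Pdgfra and Cd34, the members of these 4 that were lower in S273A cells, 5′ to 3′ on the plus strand, with capitals marking the single motif match. The Pdgfra gene spans chr5:75151322-75198206, and its stretch is chr5:75152001-75152250, before the start of one transcript inside the gene. The Cd34 gene spans chr1:194938821-194961292, and its stretch is chr1:194938571-194938820.
Pdgfra: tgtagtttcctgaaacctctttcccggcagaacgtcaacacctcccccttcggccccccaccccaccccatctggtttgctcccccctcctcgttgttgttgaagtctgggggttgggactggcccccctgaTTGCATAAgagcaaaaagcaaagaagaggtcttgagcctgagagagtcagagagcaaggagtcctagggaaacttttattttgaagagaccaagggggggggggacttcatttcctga
Cd34: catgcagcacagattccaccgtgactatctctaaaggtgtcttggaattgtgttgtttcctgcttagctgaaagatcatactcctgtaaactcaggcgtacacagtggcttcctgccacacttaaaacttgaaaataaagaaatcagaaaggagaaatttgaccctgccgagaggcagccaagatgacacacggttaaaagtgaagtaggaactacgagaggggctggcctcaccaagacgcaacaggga
A search on both strands for 7 motifs found none of them in the 4 stretches: the PPAR-type direct repeat (DR1) and the half-site AGGTCA that it contains, the CCAAT box, the GC box GGGCGG, the E-box CACGTG, the C/EBP palindrome TTGCGCAA and the TATA box TATAAA. The looser C/EBP core TTGCNNAA, of which the palindrome is a special case, was added after the Pdgfra sequence had been read, because TTGCATAA had been seen there, and it matched once, at position -118 from the start of Pdgfra. It occurs in 9.56% of 32851 promoter stretches of this length, against 14.0% for the half-site, 33.8% for the CCAAT box, 32.7% for the GC box, 12.4% for the TATA box, 6.02% for the E-box, 0.164% for the palindrome and 0.0335% for the repeat. The match is a description of letters chosen with the sequence in view, and no binding was measured.

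S273A cells were compared with untreated wild-type cells to ask whether the progenitor markers differ with the receptor form. The probe sets for Pdgfra (1 of 2), Pdgfrb (both), Cd34 and Thy1 were lower in S273A cells, by 1.18-fold to 1.56-fold, and Dlk1 and Eng did not pass the test. Of the 8 probe sets tested, 5 probe sets of 4 genes were called, all lower (limma, Benjamini-Hochberg adjusted p under 0.05 over 15838 probe sets). Across all probe sets tested, 7.71% were called in this comparison and 5.13% were called lower. The median log2 change of the 8 was -0.27, against -0.004 over all probe sets. All 8 changes were below 0, where 51.0% of all probe sets were at or below 0. Those of Pdgfra 1421916_at (-0.03), Dlk1 (-0.06) and Eng (-0.10) were small and not called, and Pdgfra and Pdgfrb each count with 2 probe sets. These are bulk RNA measurements, in which fewer cells of a type and less RNA per cell cannot be told apart.

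Pdgfra gave the largest change among the members. Its probe set 1421917_at read 1389, 1442 and 1262 in S273A cells, against 2267, 2038 and 2097 in untreated wild-type cells. Every S273A array lay well below every untreated array. The log2 change was -0.64 (SE 0.06, limma adjusted p = 9.24e-06), a level 1.56-fold lower. The other Pdgfra probe set, 1421916_at, read 741, 745 and 659 in S273A cells, against 760.2, 613 and 829 in untreated wild-type cells. These arrays were intermixed, and the log2 change was -0.03 (SE 0.11, limma adjusted p = 0.916). Both probe sets are annotated to the same source sequence, and where in the gene either of them lies was not analysed here.

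Pdgfrb (chr18:61045127-61085067) gave the same direction on both of its probe sets. Probe set 1417148_at read 702, 742 and 739.5 in S273A cells, against 939, 903 and 959 in untreated wild-type cells, a log2 change of -0.35 (SE 0.065, limma adjusted p = 0.00336). Probe set 1436970_a_at read 1716, 1653 and 1733 in S273A cells, against 2047, 2335 and 1949 in untreated wild-type cells, a log2 change of -0.31 (SE 0.06, limma adjusted p = 0.00502). On both probe sets all S273A arrays lay below all untreated arrays. The highest untreated reading of 1436970_a_at came from the array that stood apart, and without it the changes were -0.38 (adjusted p = 0.004) for 1417148_at and -0.23 (adjusted p = 0.00958) for 1436970_a_at. In a fit to the 6 arrays compared, 1436970_a_at missed the threshold (limma adjusted p = 0.0578).

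Cd34 (1416072_at) read 397, 497 and 453 in S273A cells, against 549, 521 and 598 in untreated wild-type cells. The groups did not overlap, but S273A replicate 2 and untreated replicate 2 lay close together. The log2 change was -0.30 (SE 0.08, limma adjusted p = 0.0358). The call was lost without untreated wild-type replicate 1 (adjusted p = 0.0666) or 3 (0.107), without S273A replicate 1 (0.135) or 3 (0.0808) and without MRL24 replicate 2 (0.0533), and also with no filter (0.0621) and with the 6 arrays alone (0.14).

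Thy1 (1423135_at, chr9:44043384-44048579) read 1605, 1589 and 1527 in S273A cells, against 1734, 1989 and 1876 in untreated wild-type cells. The groups did not overlap, and the untreated arrays were the more spread. Thy1 changed by -0.24 on the log2 scale (SE 0.06, limma adjusted p = 0.0155). Without S273A replicate 3 the adjusted p was 0.0634, and in a fit to the 6 arrays alone it was 0.0994.

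Dlk1 (1449939_s_at, chr12:109452485-109463336) read 12755, 13630.0 and 12841 in S273A cells, against 14728, 12116 and 14262 in untreated wild-type cells. Untreated replicate 2 lay below all S273A arrays and the other untreated arrays above them. The log2 change was -0.06 (95% interval -0.18 to 0.06, limma adjusted p = 0.563). Without untreated wild-type replicate 2 it was -0.15 (adjusted p = 0.0271), so that the count of probe sets called lower became 6. Without S273A replicate 3 that count was 3.

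Eng (chr2:32646595-32682669) was dim. Its brighter probe set 1417271_a_at read 134, 157 and 184 in S273A cells, against 148, 192 and 171 in untreated wild-type cells, with overlapping groups and a log2 change of -0.10 (95% interval -0.42 to 0.22, limma adjusted p = 0.76). The probe set below the filter, 1432176_a_at, read 61.3, 70.9 and 86.5 in S273A cells, against 58.1, 67.9 and 50.8 in untreated wild-type cells, and also overlapped (log2 change 0.24, adjusted p = 0.654 in the fit without the filter).

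**Figure D1:**
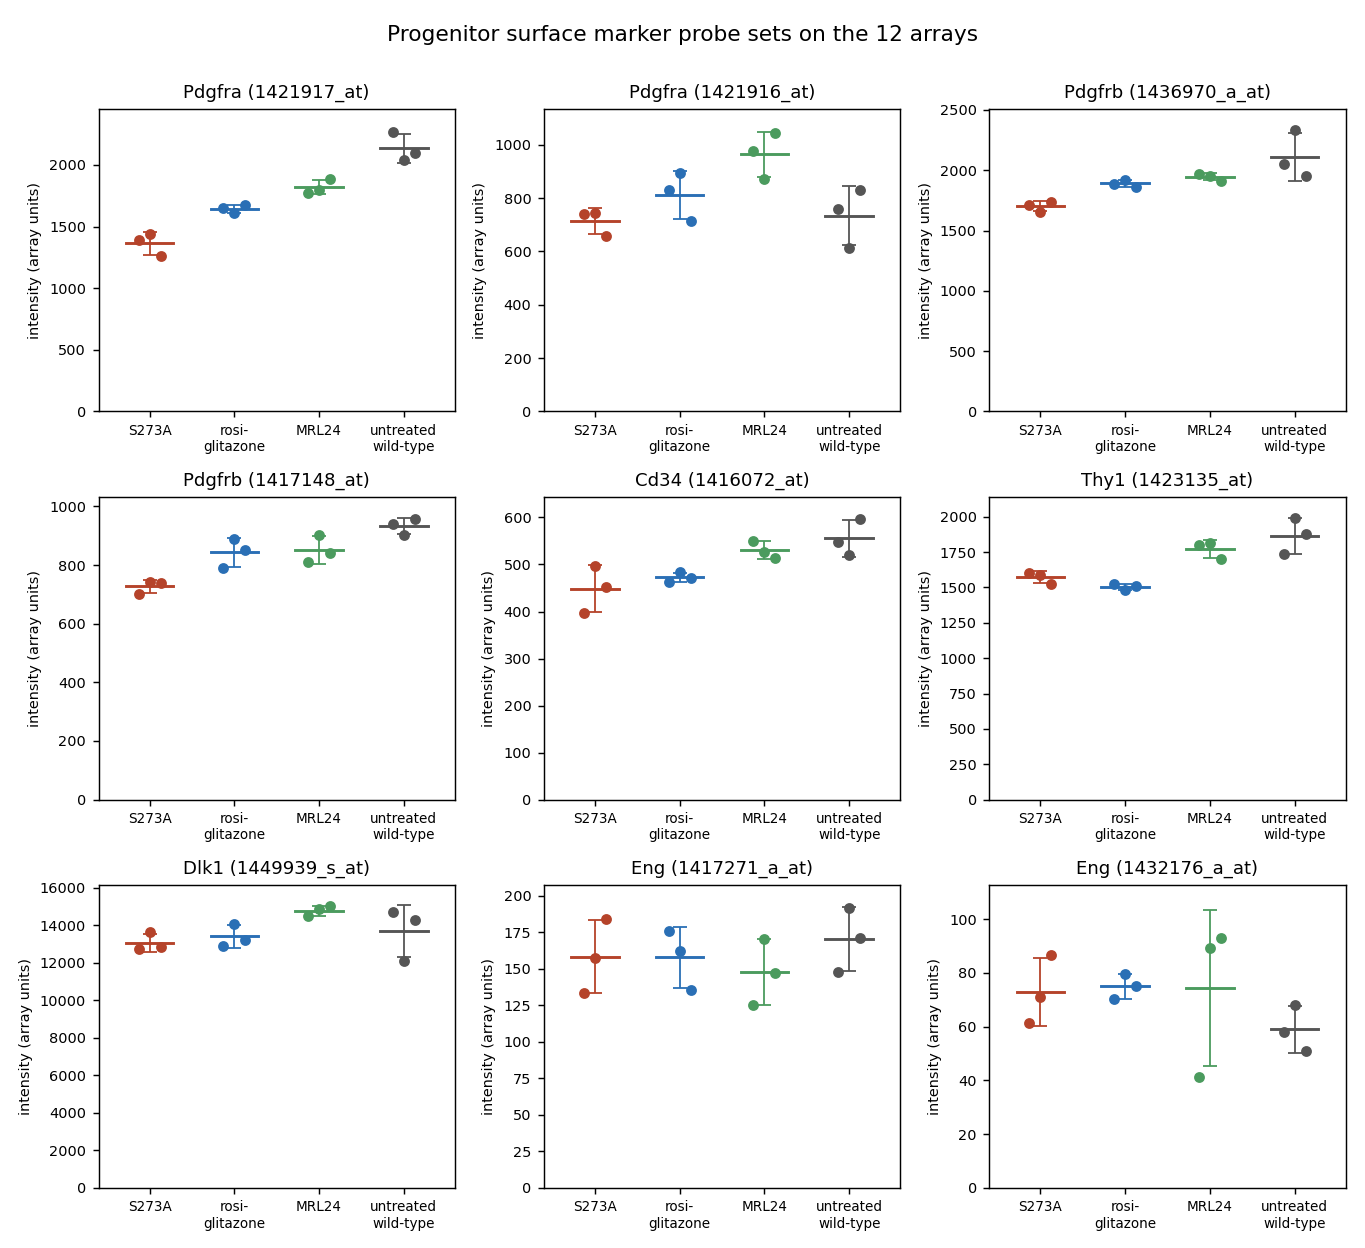
Intensity of each member probe set (vertical axes, array units, starting at 0) on the 12 arrays, in panels by probe set. Points are arrays, horizontal lines are group means and bars are ± SD (n = 3). Pdgfra 1421917_at runs from 1262 to 1442 in S273A and from 2038 to 2267 in untreated wild-type cells, while the groups of Pdgfra 1421916_at overlap.

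Rosiglitazone-treated and untreated cells, both with wild-type PPARγ, were compared to ask what a full agonist changed in these markers. Pdgfra (1421917_at) and Thy1 were lower with rosiglitazone, by 1.30-fold and 1.24-fold, and no member was called higher. Thus 2 of 8 probe sets were called, both lower, where 9.24% of all probe sets were called and 4.21% were called lower. The median log2 change of the 8 was -0.15, against 0.004 over all probe sets. The untreated arrays here are those of the S273A comparison, so the changes of the comparisons with untreated cells are not independent of each other.

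Pdgfra 1421917_at read 1649, 1606 and 1671 with rosiglitazone, against 2267, 2038 and 2097 in untreated cells. No treated array reached the lowest untreated one. The log2 change was -0.37 (SE 0.06, limma adjusted p = 0.000881). Probe set 1421916_at read 829.8, 893 and 713 with rosiglitazone, against 760.2, 613 and 829 in untreated cells, with overlap and a log2 change of 0.15 (SE 0.11, limma adjusted p = 0.434).

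Thy1 read 1522, 1482 and 1513 with rosiglitazone, against 1734, 1989 and 1876 in untreated cells. The treated arrays lay within a narrow band below all untreated ones. This was a log2 change of -0.30 (SE 0.06, limma adjusted p = 0.00281). Both calls were kept in each of the 23 alternative settings.

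Cd34 read 463, 483 and 471 with rosiglitazone, against 549, 521 and 598 in untreated cells, and its groups did not overlap. Its log2 change of -0.22 (95% interval -0.40 to -0.05) had a limma adjusted p of 0.105. Pdgfrb 1417148_at read 791, 888 and 851 with rosiglitazone, against 939, 903 and 959 in untreated cells, a log2 change of -0.14 (limma adjusted p = 0.186). The groups lay close together without overlap. Pdgfrb 1436970_a_at read 1888, 1920.1 and 1863 with rosiglitazone, against 2047, 2335 and 1949 in untreated cells, a log2 change of -0.15 (limma adjusted p = 0.127), again without overlap. Without untreated wild-type replicate 3 1436970_a_at changed by -0.21 and was called (adjusted p = 0.0421), which brought the count to 3. In all, 5 of the 8 probe sets had every treated array below every untreated array, where 13% of all probe sets did so.

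Dlk1 read 12920.0, 14077 and 13237 with rosiglitazone, against 14728, 12116 and 14262 in untreated cells. The groups overlapped, and the log2 change was -0.03 (95% interval -0.15 to 0.09, limma adjusted p = 0.824). Eng 1417271_a_at read 176, 162 and 135 with rosiglitazone, against 148, 192 and 171 in untreated cells, again with overlap (log2 change -0.10, adjusted p = 0.738). Its dimmer probe set, 1432176_a_at, read 70.3, 79.7 and 74.99 with rosiglitazone, against 58.1, 67.9 and 50.8 in untreated cells, above all untreated arrays but below the intensity filter.

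MRL24 was set against the same untreated cells. The probe sets of Pdgfra were called in opposite directions, 1421917_at lower and 1421916_at higher, and no other member was called. That is 2 of 8 probe sets, with 8.44% of all probe sets called, 5.76% higher and 2.67% lower. The median log2 change of the 8 was -0.09, against 0.018 over all probe sets.

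Pdgfra 1421917_at read 1775, 1799.7 and 1888 with MRL24, against 2267, 2038 and 2097 in untreated cells, and no treated array reached the lowest untreated one. The log2 change was -0.23 (SE 0.06, limma adjusted p = 0.0312). Pdgfra 1421916_at read 976, 872 and 1043 with MRL24, against 760.2, 613 and 829 in untreated cells. Here every treated array lay above every untreated one, with a log2 change of 0.39 (SE 0.11, limma adjusted p = 0.0345). Leaving out MRL24 replicate 1, 2 or 3 ended both calls (adjusted p = 0.098, 0.105 and 0.0685 for 1421917_at and 0.0916, 0.0512 and 0.146 for 1421916_at). Leaving out untreated wild-type replicate 1 ended that of 1421917_at (0.0806), and leaving out untreated replicate 2 that of 1421916_at (log2 change 0.27, adjusted p = 0.143).

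No other member was called with MRL24. Thy1 read 1803, 1812 and 1701 with MRL24, against 1734, 1989 and 1876 in untreated cells, with overlap (log2 change -0.07, 95% interval -0.19 to 0.05, limma adjusted p = 0.446). Cd34 read 551, 527 and 514 with MRL24, against 549, 521 and 598 in untreated cells, also with overlap (log2 change -0.06, limma adjusted p = 0.675). Dlk1 read 14479.7, 14853 and 15009.6 with MRL24, against 14728, 12116 and 14262 in untreated cells. All 3 treated arrays lay above 2 of the untreated ones, and 2 of them above all untreated arrays, but the log2 change of 0.11 was not called (95% interval -0.01 to 0.24, limma adjusted p = 0.216). Pdgfrb 1417148_at read 809.8, 902 and 841 with MRL24, against 939, 903 and 959 in untreated cells (log2 change -0.13, adjusted p = 0.21), and its highest treated array lay next to the lowest untreated one. Pdgfrb 1436970_a_at read 1971, 1952 and 1913 with MRL24, against 2047, 2335 and 1949 in untreated cells, with overlap (log2 change -0.11, adjusted p = 0.248). Eng 1417271_a_at read 125, 170.4 and 147 with MRL24, against 148, 192 and 171 in untreated cells (log2 change -0.19, adjusted p = 0.453), and 1432176_a_at read 41.1, 89.2 and 92.8 with MRL24, the widest spread of the 4 groups.

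**Figure D2:**
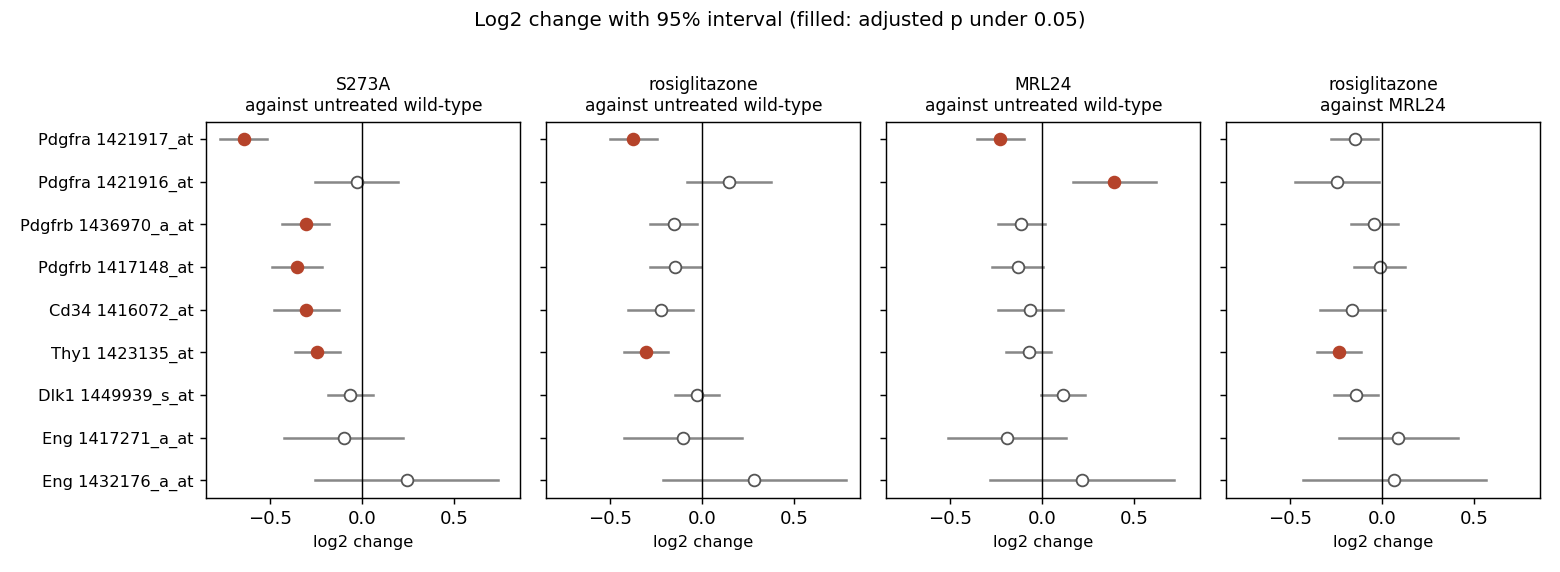
Log2 change of each member probe set (horizontal axes) with its 95% interval in the comparisons with untreated wild-type cells and of rosiglitazone with MRL24. Filled points have a limma adjusted p under 0.05. Pdgfra 1421917_at is filled in all 3 comparisons with untreated cells, at -0.64, -0.37 and -0.23, and Pdgfra 1421916_at lies on the other side of 0 with MRL24, at 0.39.

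The ligands, both given at 1 µM for 24 h, were compared with each other as the 1 pair of compounds. Thy1 was lower with rosiglitazone and was the 1 probe set of 8 called, against 2.25% of all probe sets called and 0.979% called lower. Thy1 read 1522, 1482 and 1513 with rosiglitazone, against 1803, 1812 and 1701 with MRL24, without overlap. The log2 difference was -0.23 (SE 0.06, limma adjusted p = 0.0425). Leaving out any one of the 6 arrays compared ended this call (adjusted p from 0.0768 to 0.182), as did leaving out S273A replicate 1 (0.0534) or 2 (0.0581).

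For the other members the ligands were not shown to differ. The interval of rosiglitazone minus MRL24 was -0.28 to -0.02 for Pdgfra 1421917_at (adjusted p = 0.248), -0.47 to -0.02 for Pdgfra 1421916_at (adjusted p = 0.287) and -0.34 to 0.01 for Cd34 (adjusted p = 0.383). Dlk1 read 12920.0, 14077 and 13237 with rosiglitazone, against 14479.7, 14853 and 15009.6 with MRL24. These groups did not overlap, and the difference of -0.14 had an adjusted p of 0.243, or 0.0244 without untreated wild-type replicate 2. The Pdgfrb intervals reached from -0.15 to 0.13 on 1417148_at and from -0.17 to 0.09 on 1436970_a_at, and that of Eng 1417271_a_at from -0.23 to 0.41. In 4 of the 8 probe sets every rosiglitazone array lay below every MRL24 array, against 15.2% of all probe sets.

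The order of the group means was the same for Pdgfra 1421917_at, Cd34 and both Pdgfrb probe sets, from low to high S273A, rosiglitazone, MRL24 and untreated wild-type. For Pdgfra 1421917_at these means were 1364 ± 92.5 in S273A, 1642 ± 32.9 with rosiglitazone, 1821 ± 59.8 with MRL24 and 2134 ± 119 in untreated cells (SD, n = 3 each). Of the neighbours in this order, MRL24 differed from untreated (limma adjusted p = 0.0312) and rosiglitazone from S273A (0.0099), while the test of rosiglitazone against MRL24 did not pass (0.248). No test between neighbours passed for Cd34 or Pdgfrb. For Thy1 the lowest mean was that of rosiglitazone, 1506 ± 21.2, next to 1574 ± 41.4 in S273A (adjusted p = 0.579).

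Other orders were seen for the remaining probe sets, and no test between neighbours passed. Pdgfra 1421916_at averaged 715 ± 48.7 in S273A, 812 ± 91.5 with rosiglitazone, 964 ± 86.04 with MRL24 and 734 ± 110.5 in untreated wild-type cells, highest with MRL24 and lowest in S273A. Dlk1 had the same highest and lowest groups, at 13075 ± 482 in S273A, 13411 ± 598 with rosiglitazone, 14781 ± 272 with MRL24 and 13702 ± 1393 in untreated cells. Between ligand-treated wild-type cells and S273A cells, which differ in both receptor and ligand, Pdgfra 1421917_at was higher by 0.27 with rosiglitazone (adjusted p = 0.0099) and by 0.41 with MRL24 (adjusted p = 0.000581). It was the 1 probe set of 8 called with rosiglitazone, against 8.67% of all probe sets. With MRL24 3 of 8 were called, against 10.1% of all, the others being Pdgfra 1421916_at (0.42, adjusted p = 0.0214) and Pdgfrb 1417148_at (0.22, adjusted p = 0.0426).

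The disagreement between the Pdgfra probe sets was measured on each array as the log2 value of 1421917_at minus that of 1421916_at. This difference averaged 0.92 ± 0.02 in S273A cells, 1.01 ± 0.19 with rosiglitazone, 0.91 ± 0.11 with MRL24 and 1.53 ± 0.19 in untreated wild-type cells (SD, n = 3 each). The single arrays ran from 0.89 to 0.94 in S273A cells, from 0.83 to 1.21 with rosiglitazone, from 0.85 to 1.03 with MRL24 and from 1.32 to 1.71 in untreated cells. All 9 arrays with S273A or a ligand therefore lay below the lowest untreated array. The members were shown by probe set because of this disagreement, so it is a description. An exact permutation test gave p = 0.1 in each comparison with untreated cells. That is the smallest value possible with 3 arrays against 3, so nothing is concluded from it.

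The difference between the Pdgfrb probe sets had means of 1.21 ± 0.07 in S273A cells, 1.15 ± 0.08 with rosiglitazone, 1.18 ± 0.08 with MRL24 and 1.16 ± 0.18 in untreated cells, and the groups overlapped. Over the 12 arrays, Pearson's r between the probe sets of a gene was 0.75 for Pdgfrb, 0.22 for Pdgfra and 0.41 for Eng, as a description of arrays that share groups. For Eng the per-array difference was 0.97 ± 0.02 in S273A and 1.31 ± 0.17 in untreated cells, but 1 of its probe sets lay below the filter.

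**Figure D3:**
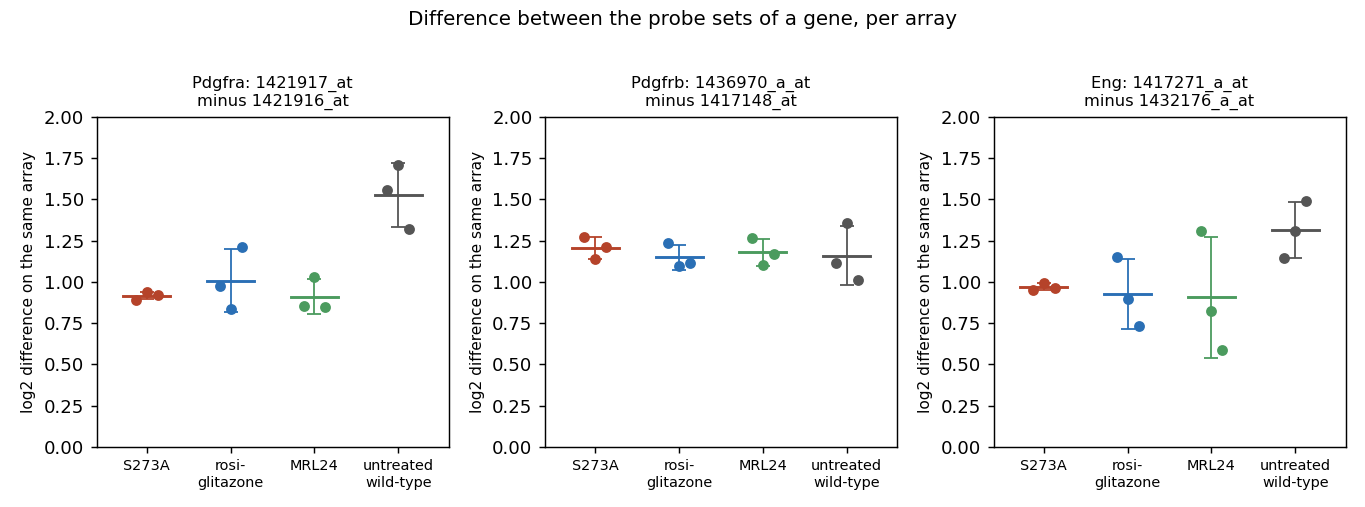
Log2 difference between the probe sets of Pdgfra, Pdgfrb and Eng on the same array (vertical axes), by group. Points are arrays, lines are means and bars are ± SD (n = 3). The untreated wild-type arrays of Pdgfra lie at 1.32 to 1.71, above all others, and the groups of Pdgfrb overlap.

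Among the members, Pdgfra 1421917_at varied most closely with Pdgfrb over the 12 arrays (r = 0.87 with 1417148_at and 0.80 with 1436970_a_at), with Cd34 (0.79) and with Thy1 (0.70). Pdgfra 1421916_at instead varied with Dlk1 (r = 0.79) and not with Thy1 (0.01). Untreated wild-type replicate 2, the array that stood apart, had the lowest reading of the 12 on both Pdgfra 1421916_at (613) and Dlk1 (12116). These values describe 12 arrays in 4 groups and mostly repeat the group means.

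Among 14535 named probe sets, the closest to Pdgfra 1421917_at was a probe set of Runx1, which encodes a transcription factor of blood and mesenchymal lineages (r = 0.98). That Runx1 probe set changed by -0.82 in S273A cells and by -0.52 with rosiglitazone, while the brightest of the Runx1 probe sets changed by 0.15 in both comparisons and was called in neither (limma adjusted p = 0.472 and 0.437). The next was 2610507B11Rik (r = 0.97), whose other probe set changed by 0.21 in S273A cells, against -0.25 for the one that was alike. Closest to Pdgfrb 1436970_a_at were the oncostatin M receptor gene Osmr and the kinase gene Rps6ka3 (both r = 0.96), although the other 2 Rps6ka3 probe sets changed by 0.03 and 0.05 in S273A cells, against -0.55 for the one that was alike. Closest to Thy1 were Il1rap, an accessory protein of the interleukin-1 receptor, and the deubiquitinase gene Usp33 (both 0.96). The Il1rap probe set that was alike changed by -0.31 in S273A cells, and the other 2 by 0.03 and 0.10. The closest values were lower for Dlk1 (Dbn1, an actin-binding protein, 0.93, and Mid1, 0.92), Cd34 (Ctdspl and Eif1ax, both 0.90) and Eng (Dffb, 0.88, and St3gal3, 0.85).

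Related genes were read from their brightest probe set. Across all probe sets, 2.58% were called higher and 5.13% lower with S273A. With rosiglitazone these shares were 5.03% and 4.21%, and with MRL24 5.76% and 2.67%. The counts in each list below stand beside these shares. Of 15 other progenitor and stromal surface genes tested, 2 were lower in S273A cells and none higher, where 2.58% of all probe sets were called higher, with a median log2 change of 0.001. The count called lower ran from 1 to 4 over the settings, and it was 4 without untreated wild-type replicate 2. Cd248 (endosialin), a surface protein of stromal fibroblasts and pericytes, read 2950.1 ± 115 in S273A and 3989 ± 145 in untreated wild-type cells (log2 change -0.43, SE 0.05, limma adjusted p = 8.05e-05), a call kept in all 23 settings. The integrin subunit Itgav fell by 0.14 (adjusted p = 0.0342), a call lost in 9 of 23 settings, while its other 2 probe sets changed by 0.17 and 0.31. With rosiglitazone, where 5.03% of all probe sets were called higher, 3 of the 15 rose and none fell: Alcam (0.41), an immunoglobulin-type adhesion molecule, Cd24a (0.41), a small glycoprotein that marks early adipose progenitors in the mouse, and the integrin subunit Itgb1 (0.22, with 5 other probe sets at -0.09 to 0.32). With MRL24 the tissue factor gene F3 (0.27), Itgb1 (0.25) and Cd24a (0.24) rose, although the call of F3 was lost in 10 of 23 settings and the other 5 Itgb1 probe sets changed by -0.33 to 0.32.

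Of 16 regulators of adipocyte precursors, 1 rose and 4 fell in S273A cells, where 2.58% of all probe sets were called higher and 5.13% lower. The count called lower ran from 2 to 5 over the settings. Foxc2, a forkhead factor, read 1929.7 ± 90.7 in S273A and 1399.9 ± 61.4 in untreated wild-type cells (log2 change 0.46, limma adjusted p = 0.000197). Wnt5a, a Wnt ligand, fell by 0.55 (adjusted p = 0.00762), and Osr1, a zinc finger factor of mesenchymal progenitors, fell by 0.32 (adjusted p = 0.023). Egr1 and the Wnt effector gene Ctnnb1 fell by 0.29 and 0.13, although the call of Ctnnb1 was lost in 13 of 23 settings and the other 2 probe sets of Ctnnb1 changed by 0.01 and 0.08. With rosiglitazone Tcf7l2 rose (0.27, with 3 other probe sets at -0.16 to 0.26) and 4 fell, Osr1 by 0.31, Ddit3 by 0.29, Ctnnb1 by 0.16 (its other 2 probe sets changed by -0.03 and 0.11) and Egr1 by 0.15, the last with its call lost in 12 of 23 settings. No regulator was called higher with rosiglitazone in 6 settings, among them without untreated wild-type replicate 2. The count called lower with rosiglitazone ran from 1 to 4. With MRL24 only Tcf7l2 was called of the 16 (0.31).

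The ligands of the PDGF receptors were not among the genes called: Pdgfa, Pdgfb and Pdgfc did not pass the test in any of the comparisons with untreated cells, and Pdgfd was below the filter. Pdgfc read 1424 ± 36.8 in S273A and 1253 ± 116 in untreated wild-type cells (adjusted p = 0.0998). Of 15 PDGF ligand and signalling genes, 3 fell in S273A cells and none rose: the phosphatase gene Ptpn11 (-0.34), the adaptor gene Crk (-0.28, with other probe sets at -0.39 to 0.04) and the kinase subunit gene Pik3ca (-0.42), of which the last kept its call in 9 of 22 other settings. The other Ptpn11 probe sets changed by -0.04 and 0.07. With rosiglitazone Plaur (0.22) and Plat (0.18), the urokinase receptor and a plasminogen activator that can process PDGF ligands, rose and Ptpn11 fell by 0.22, although the call of Ptpn11 was lost in 14 of 23 settings and its other 2 probe sets changed by 0.02 and 0.11.

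In the TGF-β and BMP pathway in which endoglin acts, 1 of 21 genes rose and 3 fell in S273A cells. The BMP target genes Id1 and Id2 were called in opposite directions, 0.29 for Id1 (limma adjusted p = 0.00289) and -0.35 for Id2 (adjusted p = 0.000803), and Smad1 and the inhibitory Smad7 fell by 0.35 and 0.28, while the other Smad1 probe set changed by -0.11. With rosiglitazone the receptor gene Bmpr2 (0.48) and the ligand gene Tgfb1 (0.34) rose and Smad1 fell by 0.41, with its other probe set at -0.08. With MRL24, where 5.76% of all probe sets were called higher, 5 rose and none fell, among them Bmpr2 (0.60), Smad3 (0.41), Tgfbr3 (0.39) and Smad5 (0.34). The count called higher ran from 1 to 5 over the settings and was 3 without untreated wild-type replicate 2. That called lower ran from 0 to 2. In the Notch pathway list drawn up around Dlk1, none of 14 genes was called with S273A. With MRL24 the Notch target Hey1 (0.49) and Meg3 (0.20), the imprinted noncoding gene beside Dlk1, rose and the protease gene Adam17, which can shed Dlk1, fell by 0.25. The Adam17 call was lost in 12 of 23 settings and that of Meg3 in 7 of 23. The other 2 Adam17 probe sets changed by -0.04 and 0.17, and the other 4 Meg3 probe sets by -0.08 to 0.36. With rosiglitazone Jag1 (0.49) and Hes1 (0.43) rose and Adam17 fell by 0.33. The count of genes of this list called higher with rosiglitazone moved in 8 settings and ran from 0 to 3. Meg3 was lower with rosiglitazone than with MRL24 by 0.35 (adjusted p = 0.00119).

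The markers moved beside changes in fibroblast and adipocyte genes. Of 12 fibroblast markers 5 fell in S273A cells and none rose: Postn (-0.69), Col1a2 (-0.38), Col3a1 (-0.36), Col1a1 (-0.28) and Sparc (-0.12). The other Sparc probe set changed by 0.09, and the call of Sparc was lost in 4 of 23 settings. With rosiglitazone 1 of the 12, Col6a1, was called (0.20), and with MRL24 none. The count of fibroblast markers called lower with rosiglitazone ran from 0 to 4 over the settings. It was 3 without untreated wild-type replicate 2. Of 15 adipocyte markers, 8 rose with rosiglitazone, among them Angptl4 (1.42), Fabp4 (1.41) and Lpl (0.83), and none fell. The fatty acid transporter gene Cd36 was the most changed, at 1422 ± 40.04 with rosiglitazone and 164 ± 13.2 in untreated wild-type cells (SD, n = 3 each). With MRL24 5 rose, including Cd36 (1.25) and Fabp4 (0.69). In S273A cells Cd36 (0.82), Pnpla2 (0.27) and Scd1 (0.15) rose and Angptl4 fell by 0.44, although its other, dimmer probe set changed by 0.27. The call of Scd1 was lost in 6 of 23 settings, and the count called higher with S273A ran from 1 to 4. The part of fibroblast or adipocyte content in the changes of the surface markers was not tested.

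**Figure D4:**
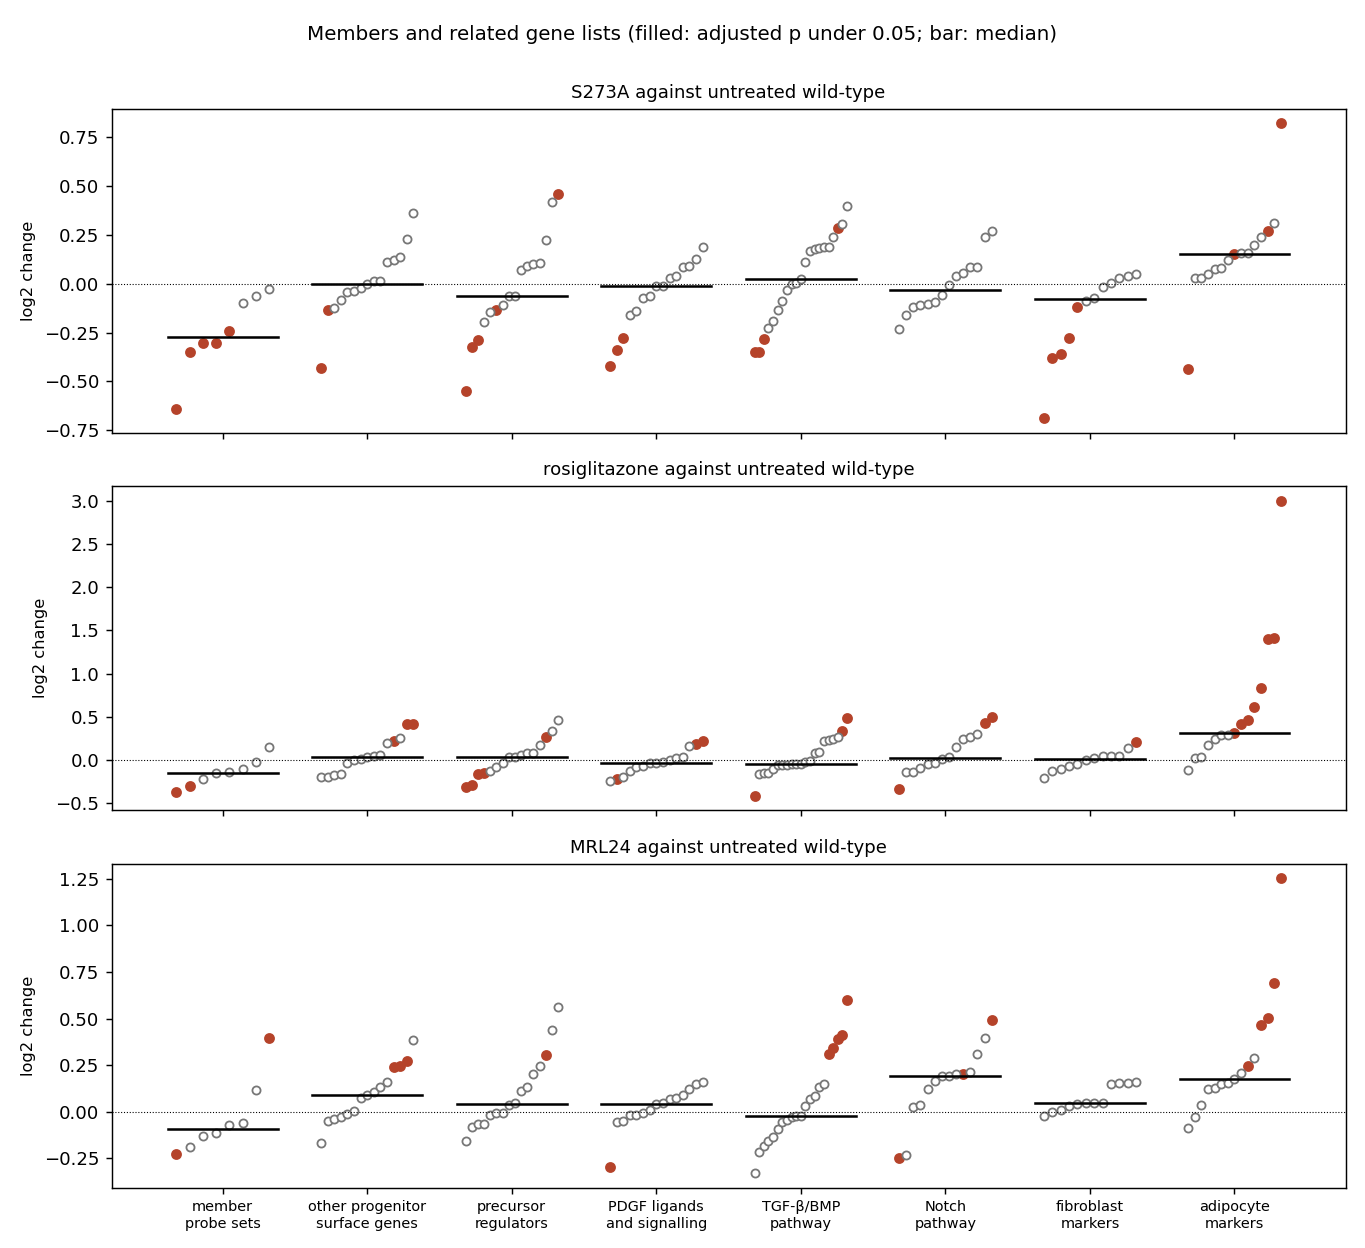
Log2 change (vertical axes, scaled separately in each panel) of the 8 tested member probe sets and of the tested genes of related lists against untreated wild-type cells. Filled points have a limma adjusted p under 0.05 and bars are medians. In S273A cells the median of the member probe sets is -0.27 and that of the other progenitor surface genes 0.001.

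Cd34, Thy1 and Eng are also carried by other cell types. Of 12 endothelial markers 7 passed the filter, and Pecam1, Tie1, Emcn, Vwf and Esam did not. The summed intensity of all 12, past the filter or not, ran from 1713 to 1978 in S273A, 1842 to 1950 with rosiglitazone, 1954 to 2058 with MRL24 and 1665 to 2224 in untreated wild-type cells. Tek was the 1 gene called, higher in S273A cells by 0.49 (limma adjusted p = 0.0193). This call was lost in 5 of 22 settings, among them those without untreated wild-type replicate 2 or without S273A replicate 2 or 3 (adjusted p of at most 0.0907). Of 12 haematopoietic markers 6 passed, while Ptprc, Itgam, Fcgr1, Cd3e, Kit and Tyrobp did not. The sum of all 12 was 4225 to 4309 in S273A, 3616 to 4077 with rosiglitazone, 3672 to 3807 with MRL24 and 3522 to 3972 in untreated cells. Cd68, a lysosomal macrophage marker, was the 1 gene called of the 6, higher in S273A cells by 0.63 (limma adjusted p = 5.07e-05). Of 11 pericyte and smooth muscle markers 6 passed. The sums of all 11 were 14606 to 14980.2 in S273A, 13554 to 13895 with rosiglitazone, 15102 to 15177 with MRL24 and 15260.3 to 16303 in untreated cells. Rgs5 was lower in S273A cells by 0.16 and with rosiglitazone by 0.49. The other 3 Rgs5 probe sets changed by -0.03 to 0.04 in S273A cells, and that call was lost in 3 of 23 settings, among them without S273A replicate 3. Their part in the changes of the surface markers was not tested.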

How the data were processed

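Total RNA was labelled with biotin and hybridised to Affymetrix arrays. The authors deposited intensity values on a linear scale; their normalization method was not named by labels or file. S273A is the group whose titles say mutant. Of 22690 probe sets, 64 were controls, 20380 had 1 symbol, 691 several and 1555 none in the platform annotation, and Entrez IDs found 20351 of those with 1 symbol in RefSeq (GRCm38.p6), none renamed. Probe sets with a mean at or above the 30th percentile (100.9) were tested as log2(intensity + 16), so folds of dim probe sets are understated. One limma 3.58.1 model (R 4.3.3; lmFit, eBayes with trend) over 12 arrays left 8 residual degrees of freedom, with Benjamini-Hochberg adjustment over 15838 probe sets. Tables used python 3.11.15, pandas 2.3.3 and scipy 1.17.1. The number of arrays limits the precision. In simulated S273A data, with 50 changed probe sets per size among 15838, 15, 34, 41 and 49 were recovered at log2 sizes of 0.3, 0.5, 0.7 and 1. The simulated data also gave 7 false calls.

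The members and lists were chosen with earlier results of these data known. Named are all member probe sets, Pparg, the 2 most alike genes per member, up to 4 called genes per list, and defining markers. Fewer are described than this allows, and some more were named after their values were seen. One promoter motif of 8 was added after a sequence had been read. Alternatives were other pseudocounts, filters, scalings, variance models, arrays and a replicate block. Same-numbered arrays did not deviate together (1 of 18 pairs above a correlation of 0.1, range -0.115 to 0.124), so the numbers were not taken as pairs.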

Additional observations from a re-analysis of the deposited data

Results flagged for a closer look

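The ligands differed in their change of Thy1 against untreated wild-type cells. With rosiglitazone Thy1 changed by -0.30 and with MRL24 by -0.07 on the log2 scale, and the difference between them was -0.232 (SE 0.06, limma adjusted p = 0.0425). Thy1 read 1506 ± 21.2 with rosiglitazone and 1772 ± 61.5 with MRL24 (SD, n = 3 each), lower in 3 of 3 rosiglitazone arrays than in any MRL24 array. The adjusted p was above the threshold in 11 of 23 alternative settings, and it was 0.0116 without untreated wild-type replicate 2.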

How the results depend on the processing

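No called change of a member reversed its direction under any of up to 23 alternatives, but most of these could not have reversed one. The groups of each called change did not overlap, so leaving out a single array could not turn it. Several other alternatives alter only the p-value and leave the log2 change as it was. Changes that were not called did change sign: Pdgfra 1421916_at with S273A in 3 (range -0.15 to 0.06), Dlk1 with rosiglitazone in 2 (to 0.03), Eng 1417271_a_at with S273A in 1 (to 0.005), and between the ligands Pdgfrb 1417148_at in 4 and each Eng probe set in 1. The ligands against S273A were not recomputed. Pdgfra 1421917_at kept its calls with S273A and rosiglitazone in all 23, as did Thy1 with rosiglitazone, and Pdgfrb 1417148_at kept its call with S273A in the 22 that include it, while the call of Cd34 with S273A was lost in 8 of 23. The count of member probe sets called with S273A, 5, was 2 in a fit to the 6 arrays compared and 3 to 6 without single arrays. With rosiglitazone it was 2 in every setting except without untreated wild-type replicate 3, where it was 3. With MRL24 the count of 2 became 0 without a variance trend or with the 6 arrays alone, and 1 with array weights, with the brightest probe set per gene, with no filter and with the replicate block, and it ran from 0 to 2 without single arrays. Between the ligands the count of 1 became 0 with equal array medians, without a trend or with the replicate block, and 2 with array weights or the 6 arrays alone, and ran from 0 to 2 without single arrays. The replicate block gave 4 calls with S273A (Cd34 lost, limma adjusted p = 0.0551) and 2 with rosiglitazone; it ended the calls of Pdgfra 1421916_at with MRL24 (0.0506) and of Thy1 between the ligands (0.069). The cause of these changes was not tested.

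Over all probe sets, 1221, 1463, 1336 and 356 were called with S273A, rosiglitazone, MRL24 and between the ligands. With the 6 arrays alone these were 415, 734, 415 and 1006, and with the brightest probe set per gene, where fewer were tested, 675, 739, 508 and 231. Without a trend 708 were called with MRL24 and 210 between the ligands, with no filter 727 with MRL24, and with array weights 1105 between the ligands. Leaving out single arrays gave 723 to 1227, 752 to 1611, 322 to 1784 and 160 to 865. Equal array medians moved the share of higher calls with MRL24 to 43.1%, and quantile normalization to 55.7%, against 68.3%, and equal medians moved that between the ligands to 68.3%, against 56.5%.

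The difference between the Pdgfra probe sets was recomputed with choices made after seeing the data. Against untreated cells it was -0.61 with S273A, -0.52 with rosiglitazone and -0.62 with MRL24. With other pseudocounts and other scalings it stayed within -0.62 to -0.60, -0.53 to -0.50 and -0.63 to -0.59, in the same order. Without single arrays it ran from -0.72 to -0.52 with S273A, from -0.62 to -0.43 with rosiglitazone and from -0.72 to -0.53 with MRL24.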
